A study of Mus musculus with 6 samples.

Results

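The core factors of nonsense-mediated mRNA decay (NMD) were followed as 9 genes, Upf1, Upf2, Upf3a, Upf3b, Smg1, Smg5, Smg6, Smg8 and Smg9, selected by gene name out of the 55367 rows of the count table. All 9 were found, and all 9 had enough counts to be tested. NMD is a translation-coupled pathway that degrades mRNAs on which a ribosome terminates in an unfavorable context, such as upstream of an exon junction complex. UPF1, an RNA helicase, is its central factor; UPF2 and UPF3B (or its paralog UPF3A) bridge UPF1 to the exon junction complex. The kinase SMG1, held in check by SMG8 and SMG9, phosphorylates UPF1, and phosphorylated UPF1 then recruits SMG6, an endonuclease, and SMG5, which helps to bring in deadenylation, decapping and PP2A-mediated dephosphorylation. Transcripts of several of these factors are themselves known to be sensitive to NMD, and loss of UPF3B causes an X-linked intellectual disability.

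Polyadenylated RNA was sequenced from 3 WT and 3 Fmr1-KO cultures of C57BL/6J cortical cells. Cortex was dissected at postnatal day 1 (P1), and the dissociated cells grew in vitro for 2 days before RNA was extracted. The knockout mouse lacks FMRP, the RNA-binding protein missing in fragile X syndrome. Before plating, cells of both genotypes were depleted of ACSA2+ astrocytes and of myelin, and the labels list no treatment for either. Whether expression of the NMD factors themselves differed in Fmr1-KO relative to WT was the question addressed here. Libraries are named WT1 to WT3 and KO1 to KO3 after the replicate numbers of the labels. The labels do not tie them to litters or animals, so P values measure the spread between these libraries, part of which may be technical.

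Totals ran from 30348556 to 35126207 counts per library, and the 9 genes were therefore measured at close to the same depth in all 6. Levels are given as CPM, counts scaled to library size, and differences as the log2 fold-change (log2FC) of Fmr1-KO over WT with the P value of edgeR after Benjamini-Hochberg adjustment. Fmr1 mRNA, the check of the labels, was at 118.3, 112.2 and 109.6 CPM in WT and 54.2, 61.4 and 56.7 in Fmr1-KO. It fell by 0.98 on the log2 scale (edgeR adjusted P = 2.25e-13), and every knockout library was below every WT library. Markers of 10 cell types were summed to check the label of cortical neurons, and no marker was at 0 in all libraries. The 12 neuronal markers summed to between 5484 and 5620 CPM in WT and between 4532 and 4745 in Fmr1-KO, with 11 called lower and 1 called higher. The 10 markers of proliferating cells, all called higher, summed to between 573 and 611 CPM in WT and between 974 and 1021 in Fmr1-KO. The 8 neural progenitor markers summed to between 2381 and 2394 CPM in WT and between 2690 and 2760 in Fmr1-KO, with 4 called higher and 0 lower. The 8 oligodendrocyte lineage markers summed to between 1883 and 2044 CPM in WT and to between 1074 and 1158 in Fmr1-KO, all called lower. The 8 astrocyte markers still summed to between 5086 and 5207 CPM in WT and between 4485 and 4858 in Fmr1-KO (2 called higher, 4 lower). Ranges for the 8 microglial markers were 165 to 183 CPM in WT and 96.4 to 108.3 in Fmr1-KO (7 lower), and for the 8 endothelial and mural markers 247 to 271 and 410 to 430 CPM (4 higher, 2 lower). The 8 excitatory neuron markers spanned 599.7 to 610.2 CPM in WT and 590.9 to 621.7 in Fmr1-KO (5 higher, 3 lower), and the 9 GABAergic markers 754 to 786 and 787 to 866 CPM (4 higher, 5 lower). The 5 erythroid markers summed to between 1.84 and 2.34 CPM in WT and between 0.914 and 1.32 in Fmr1-KO (2 tested, both lower). Beside these calls, 20.7% of all tested genes were called higher and 21.9% lower. Sums weight the most abundant markers. Over the tested markers the median log2FC was -0.69 for neurons, 0.12 for excitatory neurons and -0.24 for GABAergic interneurons. It was 0.64 for proliferating cells, 0.21 for neural progenitors, -0.72 for the oligodendrocyte lineage and -0.05 for astrocytes. For microglia it was -0.56, for endothelial and mural cells 0.41 and for erythroid cells -1.02. These shifts accompany every difference below. Their part in the differences was not tested, and in bulk RNA fewer cells of a type and less RNA per cell cannot be told apart.

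The 9 genes lie at separate loci (GENCODE M21, GRCm38), and all are protein-coding. Upf3b is on the minus strand of chromosome X from 37091678 to 37110322, 31.6 Mb from Fmr1, and Upf3a on the plus strand of chromosome 8 from 13785615 to 13799193. Upf1 lies on chromosome 8 (70331525 to 70353278, minus strand) and Upf2 on chromosome 2 (5951469 to 6056703, plus strand). Smg1 and Smg9 are on chromosome 7, from 118131308 to 118243670 on the minus strand and from 24399619 to 24422778 on the plus strand. Smg6 (74925823 to 75164448, plus strand) and Smg8 (87077732 to 87086774, minus strand) are on chromosome 11, and Smg5 is on chromosome 3 (88336260 to 88362338, plus strand). No exon of a member overlapped a same-strand exon of another gene, and 0% of the 100-nucleotide stretches of any member were found in a transcript of another gene, so that untrimmed reads of this length do not mix the paralogs Upf3a and Upf3b. Exons of Upf1 overlap those of Cers1 and Gdf1, and exons of Smg6 those of Srr and Gm12333, all on the opposite strand, which the strand-aware counting keeps apart.

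A transcript annotated as an NMD substrate is present for 3 members, Smg1, Smg5 and Smg6, and for 27.4% of the 14522 tested protein-coding genes. These 3 have 3′ UTRs of 4236 (Smg1), 1233 (Smg5) and 1501 (Smg6) nucleotides in their principal transcripts, against a median of 1100 over the tested protein-coding genes. Among the other members the length ran from 224 (Smg8) to 1264 (Upf2) nucleotides.

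Promoters are shown for the 3 members that were called higher in Fmr1-KO, as windows of 300 bases around the annotated start (RefSeq, GRCm38.p6; all 9 members were matched). Each is written 5′ to 3′ on the strand of the gene, with capitals on GGGCGG in either orientation and on TCGCGA, which reads the same on both strands; some of the GGGCGG matches in Upf2 overlap each other.
Upf3b promoter, chrX:37110273-37110572, minus strand: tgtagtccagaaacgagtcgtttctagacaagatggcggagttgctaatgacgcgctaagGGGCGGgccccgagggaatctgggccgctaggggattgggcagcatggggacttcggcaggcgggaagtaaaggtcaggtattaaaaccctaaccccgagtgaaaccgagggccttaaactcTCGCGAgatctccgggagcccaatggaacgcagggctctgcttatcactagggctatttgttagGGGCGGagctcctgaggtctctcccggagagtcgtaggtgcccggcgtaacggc
Upf2 promoter, chr2:5951219-5951518, plus strand: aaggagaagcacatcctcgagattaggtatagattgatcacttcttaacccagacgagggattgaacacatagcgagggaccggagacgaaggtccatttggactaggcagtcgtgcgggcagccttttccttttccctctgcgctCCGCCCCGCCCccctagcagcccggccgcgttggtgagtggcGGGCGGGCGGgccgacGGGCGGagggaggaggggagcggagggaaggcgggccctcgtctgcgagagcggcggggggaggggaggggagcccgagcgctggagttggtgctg
Smg6 promoter, chr11:74925604-74925903, plus strand: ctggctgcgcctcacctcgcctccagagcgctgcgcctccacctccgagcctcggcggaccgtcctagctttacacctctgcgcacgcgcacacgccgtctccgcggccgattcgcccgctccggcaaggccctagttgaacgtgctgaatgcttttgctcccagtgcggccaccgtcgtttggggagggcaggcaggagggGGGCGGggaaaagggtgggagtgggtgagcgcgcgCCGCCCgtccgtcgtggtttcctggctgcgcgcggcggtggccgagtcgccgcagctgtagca
GGGCGG was found 2 times in the Upf3b window, 5 times in that of Upf2 and 2 times in that of Smg6. It was present in 7 of the 9 member promoters, Smg5 and Smg8 being the exceptions, and in 35.7% of all 32851 promoters of the same length. TCGCGA was in the windows of 4 members (Upf1, Upf3a, Upf3b and Smg5) and in 2.5% of all promoters. The motifs searched were chosen with the member promoters in view, and the other promoters were not matched to them for expression or GC content. GC content of the printed windows was 58.7% (Upf3b), 66% (Upf2) and 70.7% (Smg6), with 22, 27 and 38 CpG dinucleotides. The letters TATAAA, on either strand, were in 0 of the 9 member windows and in 13.6% of all promoters, and CCAAT was in those of Smg1, Smg8, Upf3a and Upf3b and in 37.4% of all. These matches describe the windows only, since no measurement of the promoters was made.

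By counts, every member was a mid-level to abundant mRNA. Their mean CPM lay between the 55.1 percentile (Smg8) and the 93.9 percentile (Smg1) of the tested genes. Divided by the length of the principal transcript, the level in WT was highest for Smg5, at 28.9 ± 0.397 CPM per kb (SD, n = 3). Upf3a followed at 25 ± 0.188, Upf1 at 22.4 ± 1.13 and Upf3b at 21.4 ± 1.52 CPM per kb, the last 2 not separated by their libraries. A lower tier held Smg9 (13.3 ± 0.543), Smg1 (12.3 ± 0.414), Smg6 (11.7 ± 0.297), Smg8 (9.28 ± 0.0934) and Upf2 (8.48 ± 1.00 CPM per kb). In that tier the WT libraries of Smg1 overlapped those of Smg6, and those of Smg8 overlapped those of Upf2. This order depends on the length used: over all annotated exons Upf1 came first (22.4 CPM per kb), then Smg5 (18.5) and Upf3b (12.5), and the other 6 lay between 8.0 and 9.28. Comparisons between genotypes within a gene do not depend on it. Replicates of a genotype differed least for Upf3a in WT (coefficient of variation 0.752% of CPM) and for Smg5 in Fmr1-KO (0.702%), and most for Upf2 in WT (11.8%).

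**Figure D1:**
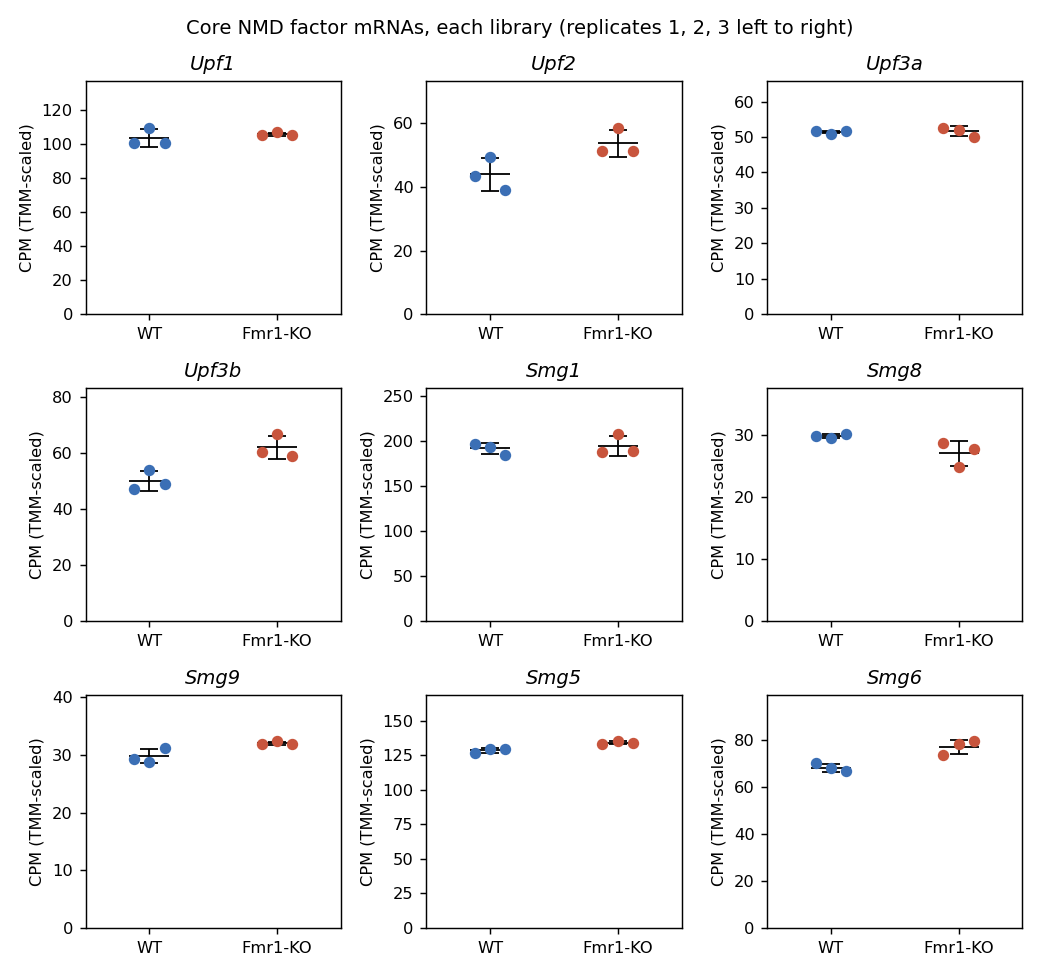
Level of each core NMD factor mRNA (y axis, TMM-scaled CPM from 0) in the 3 WT and 3 Fmr1-KO libraries (points), with the mean and SD of each genotype (black bars). The Fmr1-KO libraries of Upf2, Upf3b, Smg6, Smg5 and Smg9 lie above all WT libraries, and those of Smg8 lie below them. For Upf1, Upf3a and Smg1 the libraries of the genotypes overlap.

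In Fmr1-KO relative to WT, 3 of the 9 members rose, Upf3b, Upf2 and Smg6, by 12.9% to 23.8%. A change of -9.13% was called for 1 member, Smg8, and the remaining 5 (Upf1, Upf3a, Smg1, Smg5 and Smg9) did not pass the threshold of 0.05 on the edgeR adjusted P. Across all 16976 tested genes 20.7% were called higher and 21.9% lower, together 42.6%, so calls on 4 of 9 genes are close to that background. The median log2FC of the members was 0.06, against 0.01 for all tested genes, and the median size of their change was 0.11 on the log2 scale against 0.15. All Fmr1-KO libraries lay above all WT libraries for 5 members and below them for 1; over all tested genes such a separation was found for 25.4% above, 26.3% below and 51.7% in either direction. No member passed the test when a fold-change above 1.2 was required, with adjusted P from 0.346 (Upf3b) upward, and 0 had an unadjusted P under 0.05 in that test; of all tested genes 5.2% then passed as higher and 7.89% as lower, together 13.1%. DESeq2 called the same 3 members higher and none lower, with 15.9% of all genes called higher, 19% lower and 34.8% in all. With library totals in place of TMM, 5 members were called higher and none lower, against 24.8% and 18.9% of all genes (43.7% in all). The 3 calls of a higher level held in 14 of 15 alternatives, the exception being the minimum fold-change, while that of Smg8 held in 5 of 15.

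**Figure D2:**
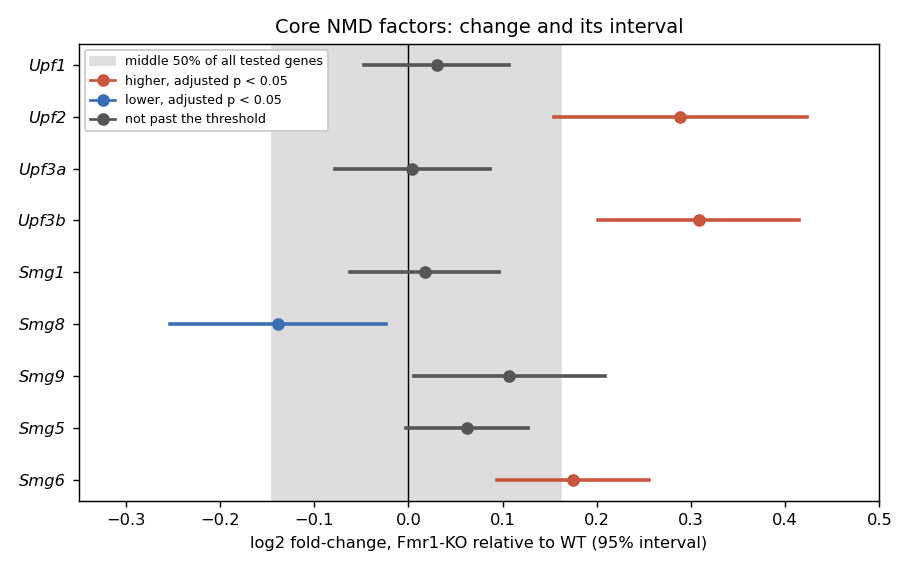
Log2FC of each core NMD factor in Fmr1-KO relative to WT (x axis; point) with its 95% interval (line), and the middle 50% of all tested genes (grey band). The points of Upf2, Upf3b and Smg6 lie to the right of the band, and the intervals of Upf1, Upf3a and Smg1 enclose 0 within it.

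Upf1, the helicase on which the pathway turns, was measured at 100.7, 109.7 and 100.6 CPM in the WT libraries and 105.3, 107.0 and 105.3 in the Fmr1-KO libraries. The WT libraries enclosed those of Fmr1-KO. Its log2FC was 0.03 (SE 0.04, edgeR adjusted P = 0.546), with a 95% interval of the change of -3.18% to 7.72%. The estimate rested partly on single libraries, being 0.07 without WT2 and 0.01 without WT1 or WT3, with no call in any of these fits. For UPF1 protein, measured in brain tissue rather than in these cultures, the paper reported similar levels in both genotypes.

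Upf2, which joins UPF1 to UPF3B, had 43.4, 49.3 and 39.0 CPM in the WT libraries and 51.1, 58.5 and 51.3 in the Fmr1-KO libraries. The groups did not overlap, but the highest WT library (WT2) came within 2 CPM of the lowest Fmr1-KO library. Upf2 rose by a log2FC of 0.29 (SE 0.06, edgeR adjusted P = 0.00102), or 22.2% (95% interval 11.3% to 34.1%). It varied most of all members, and the log2FC ran from 0.21 without WT3 to 0.38 without WT2; it passed in both fits.

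Of the UPF3 paralogs, UPF3B is the stronger NMD activator in mammalian cells. Upf3b had 47.2, 54.0 and 49.0 CPM in WT and 60.4, 66.6 and 59.0 in Fmr1-KO. Every Fmr1-KO library was above every WT library. Upf3b rose by a log2FC of 0.31 (SE 0.05, edgeR adjusted P = 4.75e-05), equal to 23.8% (95% interval 15% to 33.3%), the largest change of any member. Upf3a, in contrast, had 51.6, 51.0 and 51.7 CPM in WT and 52.6, 52.1 and 50 in Fmr1-KO, with overlapping libraries. Its log2FC was 0.00 (SE 0.04, edgeR adjusted P = 0.943; 95% interval of -5.24% to 6.17%), and it took either sign when single libraries were left out, from -0.01 without KO1 to 0.03 without KO3.

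To compare the paralogs directly, the ratio of Upf3b to Upf3a counts was taken within each library, in which library scaling cancels. It was 0.915, 1.06 and 0.947 in WT and 1.15, 1.28 and 1.18 in Fmr1-KO, without overlap. The mean of the log2 ratio was 0.30 higher in Fmr1-KO, for which an exact permutation test over the 6 libraries (2-sided, n = 3 and 3) gave P = 0.1, the smallest that 3 against 3 can give. Upf3b was thus below Upf3a in WT1 and WT3 and above it in all Fmr1-KO libraries, in counts not corrected for length.

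Upf3b is X-linked, and sex-linked genes also moved with genotype in these cultures. Xist, the RNA that coats the inactive X chromosome, was at 305.5 ± 7.34 CPM (SD, n = 3) in WT and 915.7 ± 96.4 in Fmr1-KO. Of the Y-linked genes, Eif2s3y, Ddx3y and Kdm5d fell by 0.47, 0.28 and 0.15 on the log2 scale (edgeR adjusted P = 9.45e-07, 0.000203 and 0.0250), and Uty had a log2FC of -0.20 (adjusted P = 0.0679). These 5 genes were picked after their values were known. Among the 557 tested genes of the X chromosome, 139 were called higher (25%) and 134 lower (24.1%), with a median log2FC of 0.01, the same to this precision as that of all tested genes. What the sex-linked shift contributed to the value of Upf3b was not tested.

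Of the genes outside the members with at least 10 CPM, those whose centred log2 CPM over the 6 libraries lay nearest to the profile of Upf3b were Cenpc1, Golgb1 and Rgl2. The root mean square difference was 0.0248, 0.0270 and 0.0305, and their log2FC were 0.31, 0.30 and 0.30. Because nearness was taken over libraries of both genotypes, a log2FC close to that of Upf3b follows from the selection.

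Smg1 encodes the kinase that phosphorylates UPF1. It had 197, 194 and 185 CPM in WT and 187, 207 and 188 in Fmr1-KO, and the 2 sets of libraries were interleaved. The log2FC was 0.02 (SE 0.04, edgeR adjusted P = 0.749; 95% interval -4.18% to 6.93%). Its sign depended on single libraries, from -0.03 without KO2 to 0.04 without KO1. Per library, the ratio of Smg1 to Upf1 counts, kinase to substrate, was 1.96, 1.77 and 1.84 in WT and 1.78, 1.94 and 1.79 in Fmr1-KO. These counts were not corrected for length. Divided by the length of the principal transcript, Smg1 was below Upf1 in WT, at 12.3 against 22.4 CPM per kb. The difference in log2 ratio was -0.01 (exact permutation test, 2-sided, n = 3 and 3, P = 0.8) and turned positive without WT1 (0.0261), KO1 (0.00749) or KO3 (0.00345). No difference in Smg1 mRNA was called. The ratio test could not give a P below 0.1, so it could not have called a difference in the ratio either.

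The SMG8 and SMG9 subunits restrain the kinase. Smg8 had 29.9, 29.6 and 30.1 CPM in WT and 28.7, 24.9 and 27.7 in Fmr1-KO. All Fmr1-KO libraries were lower, KO2 by the most. Smg8 was called lower with a log2FC of -0.14 (SE 0.05, edgeR adjusted P = 0.0482), close to the threshold. The call was lost without KO2 (-0.08, edgeR adjusted P = 0.241), KO3 (-0.16, adjusted P = 0.0625), WT1 (-0.14, adjusted P = 0.102), WT2 (-0.15, adjusted P = 0.0613) or WT3 (-0.13, adjusted P = 0.105), and under DESeq2 (-0.14, adjusted P = 0.104). Smg9 had 29.3, 28.8 and 31.1 CPM in WT and 32.0, 32.4 and 31.8 in Fmr1-KO, again without overlap but in the other direction. It did not pass the threshold (log2FC 0.11, SE 0.05, edgeR adjusted P = 0.0838), except with library totals alone (0.13, adjusted P = 0.0300) and without WT3 (0.14, adjusted P = 0.0464). The difference between Smg8 and Smg9 was not tested.

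Among the effectors, Smg6, the endonuclease that cuts NMD targets near the termination codon, had 70.1, 68.0 and 66.6 CPM in WT and 73.6, 78.1 and 79.4 in Fmr1-KO. The groups did not overlap. Smg6 rose by a log2FC of 0.18 (SE 0.04, edgeR adjusted P = 0.000920), or 12.9% (95% interval 6.76% to 19.4%). Smg5 had 126, 129 and 129 CPM in WT and 133, 135 and 134 in Fmr1-KO, also without overlap and with little spread. Its change was smaller and did not pass the threshold (log2FC 0.06, SE 0.03, edgeR adjusted P = 0.114; 95% interval -0.152% to 9.23%), except with library totals alone (0.09, adjusted P = 0.0231).

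The ratio of Smg6 to Smg5 counts was 0.554, 0.525 and 0.515 in WT and 0.553, 0.578 and 0.592 in Fmr1-KO. WT1 and KO1 were nearly equal, so the genotypes overlapped. The log2 ratio was 0.11 higher in Fmr1-KO (exact permutation test, 2-sided, n = 3 and 3, P = 0.2, with 0.1 the smallest possible). Of the 3 members with a transcript annotated as an NMD substrate, then, Smg6 was called higher, and Smg1 and Smg5 were not called in either direction.

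**Figure D3:**
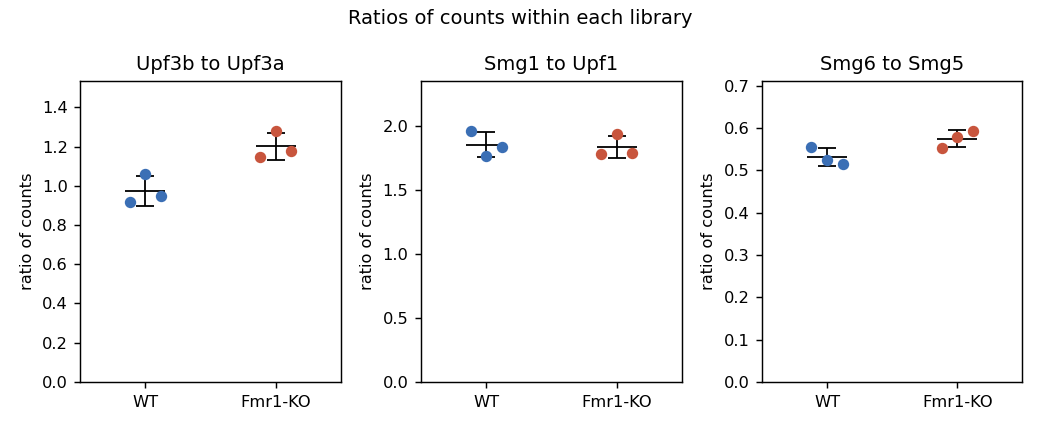
Ratio of raw counts (y axis, from 0) of Upf3b to Upf3a, Smg1 to Upf1 and Smg6 to Smg5 within each library (points), with mean and SD for each genotype (black bars). The Upf3b to Upf3a ratio is 0.974 ± 0.0764 in WT and 1.2 ± 0.0684 in Fmr1-KO without overlap; the other 2 ratios overlap between genotypes.

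Genes that act with the core factors were taken from lists of 41 further genes, all of which were tested; the lists were chosen with earlier results of these data known. Of these genes, 10 were called higher and 10 lower (24.4% each), against 20.7% and 21.9% of all tested genes, with a median log2FC of 0.02. Of the 20 calls, 11 held in all 6 fits that left out 1 library. Of the pathway genes named below, Atm alone passed when a fold-change above 1.2 was required (edgeR adjusted P = 0.0254).

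Translation termination is the event that NMD monitors, and 4 of the 4 genes on this list were called lower, beside 21.9% of all tested genes. Etf1, which encodes the release factor eRF1, was at 227.1 ± 0.688 CPM in WT and 209.7 ± 2.93 in Fmr1-KO (SD, n = 3 each, log2FC -0.12, edgeR adjusted P = 0.00287). Gspt1 and Gspt2, encoding the eRF3 GTPases that contact UPF1, had log2FC of -0.11 and -0.22 (edgeR adjusted P = 0.00752 and 0.00158). Pabpc1, the poly(A)-binding protein, was named after its values were seen and had a log2FC of -0.08 (edgeR adjusted P = 0.0289); this call was lost without WT1 (-0.07, adjusted P = 0.0908), WT3 (-0.08, adjusted P = 0.0727) or KO3 (-0.07, adjusted P = 0.0827), and with upper-quartile scaling (-0.07, adjusted P = 0.0574) or library totals (-0.05, adjusted P = 0.161), which leave 3 of the 4 called. For all 4 genes the Fmr1-KO libraries were below the WT libraries, as they were for 26.3% of all tested genes.

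The PIKK family, to which SMG1 belongs, and the TTT complex (Telo2, Tti1, Tti2) that stabilizes these kinases were listed as 8 genes. Of these, 3 were called higher and 1 lower, beside 20.7% and 21.9% of all tested genes. These calls held in all 6 fits that left out 1 library. Atm and Atr, the DNA damage kinases, rose by log2FC of 0.38 and 0.35 (edgeR adjusted P = 1.41e-06 and 0.000116), and Tti1 by 0.28 (adjusted P = 0.00224). Tti1 depended on WT3, at 19.7 CPM against 24.8 and 24.3 in the other WT libraries, and its log2FC was 0.18 without it (edgeR adjusted P = 0.0178). Mtor fell by 0.15 on the log2 scale (edgeR adjusted P = 0.000878). Prkdc and Trrap, at 0.13 and 0.03, did not pass (edgeR adjusted P = 0.0593 and 0.503), as Smg1 did not; differences between the kinases were not tested.

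Of 6 other NMD factors, 2 were called higher and 1 lower, beside 20.7% and 21.9% of all tested genes. Pnrc2, which links UPF1 to decapping, rose by a log2FC of 0.19 (edgeR adjusted P = 5.48e-05). Ruvbl2, an AAA+ ATPase required for PIKK function, had 0.14 (edgeR adjusted P = 0.00707), lost without WT1 (0.10, adjusted P = 0.0671). Nbas had -0.11 (edgeR adjusted P = 0.0329), lost without WT1, WT2, KO2 or KO3, where adjusted P ran from 0.0815 to 0.114 at -0.11 to -0.09. Nbas was not called either by DESeq2 (adjusted P = 0.0723), without a filter (0.0507), with upper-quartile scaling (0.0516) or with library totals (0.108).

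In the exon junction complex, 1 gene of 6 was called in each direction, beside 20.7% higher and 21.9% lower of all tested genes. Rbm8a, which encodes the Y14 core subunit, rose by 0.13 on the log2 scale (edgeR adjusted P = 0.00520). Rnps1, a peripheral subunit, had -0.09 (edgeR adjusted P = 0.0328), lost without WT2, WT3, KO2 or KO3 (adjusted P up to 0.103 at -0.08). This call was also absent under DESeq2 (adjusted P = 0.0567), unfiltered (0.0581), with upper-quartile scaling (0.0582) and with library totals (-0.06, adjusted P = 0.134). The core helicase Eif4a3 had a log2FC of 0.03 (edgeR adjusted P = 0.528).

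Downstream enzymes of mRNA decay numbered 12. By edgeR 4 were called higher and 0 lower, beside 20.7% and 21.9% of all tested genes. Xrn1, the exonuclease that removes the downstream fragment after SMG6 cleavage, rose by a log2FC of 0.16 (edgeR adjusted P = 0.00469). Dcp1b and Dcp2 of the decapping complex had 0.14 and 0.11 (edgeR adjusted P = 0.0267 and 0.0213), and Cnot1, the deadenylase scaffold and named after its values were seen, 0.10 (adjusted P = 0.0166). Dcp1b was lost without WT2, WT3, KO1 or KO3, with adjusted P up to 0.123 at 0.12. Dcp2 was lost without WT1, WT3, KO2 or KO3 (adjusted P up to 0.0846 at 0.09), and Cnot1 without WT2 or KO2 (adjusted P up to 0.0958 at 0.07). By DESeq2 neither Dcp1b (0.14, adjusted P = 0.0846) nor Dcp2 (0.10, adjusted P = 0.0550) was called.

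PP2A, the phosphatase that resets UPF1, had 2 of 3 subunits called lower, beside 21.9% of all tested genes. Ppp2ca fell by 0.11 on the log2 scale (edgeR adjusted P = 0.00250). Ppp2r1a had -0.09 (edgeR adjusted P = 0.0265), lost without WT1 (-0.08), WT3 (-0.08) or KO2 (-0.06), with adjusted P up to 0.107, and with library totals (-0.06, adjusted P = 0.125). Stau2, which directs another UPF1-dependent decay pathway, had -0.10 (edgeR adjusted P = 0.0197), lost without WT1 or WT2 (adjusted P up to 0.0646 at -0.10 and -0.09) or with library totals (-0.07, adjusted P = 0.0852), and its paralog Stau1 had -0.04 (adjusted P = 0.287).

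**Figure D4:**
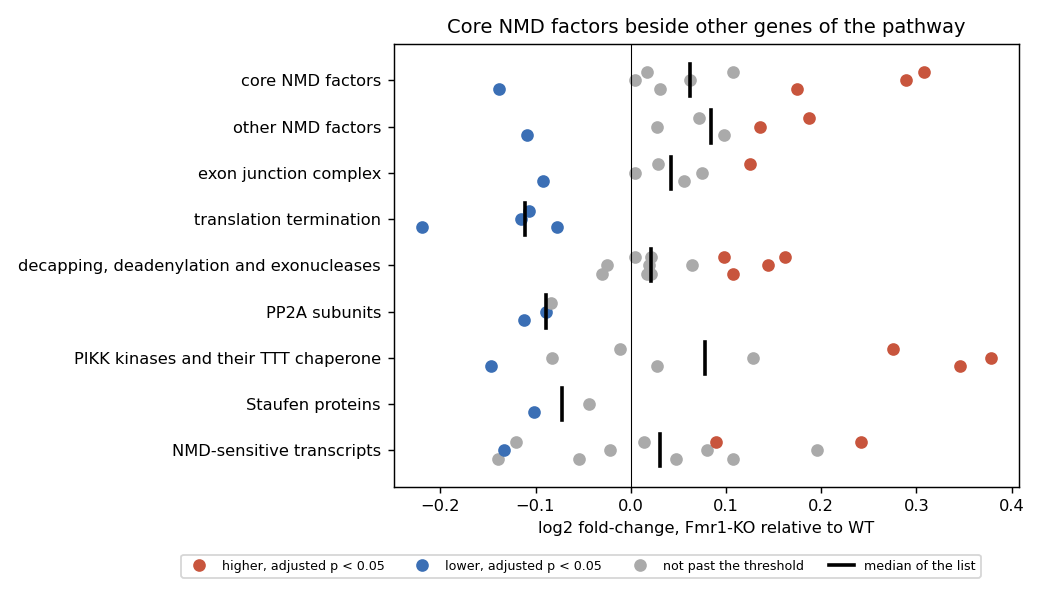
Log2FC in Fmr1-KO relative to WT (x axis) of the core NMD factors and of genes in 8 further lists (rows; 1 point per gene, colored by call, spread vertically for legibility), with the median of each list (black bar). All 4 translation termination genes lie to the left of 0; the core factors have a median of 0.06.

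From general knowledge, 12 NMD-sensitive transcripts were listed, and 2 were called higher and 1 lower, with a median log2FC of 0.03. Across all tested genes 20.7% were called higher and 21.9% lower. Counts per gene name do not separate NMD-sensitive isoforms or pre-mRNA, so these values do not measure the activity of the pathway. Gas5, a host of snoRNAs whose spliced RNA is degraded by NMD, had a log2FC of -0.02 (edgeR adjusted P = 0.649) and Atf4 one of 0.05 (adjusted P = 0.251). Gadd45b had 0.24 (edgeR adjusted P = 0.0358), Srsf3 0.09 (adjusted P = 0.0217) and Cdkn1a -0.13 (adjusted P = 0.0169). None of these 3 calls held in all fits that left out 1 library. Gadd45b was lost without WT1, WT3, KO1 or KO3 (adjusted P up to 0.112 at 0.21), and also with a replicate block (0.24, edgeR adjusted P = 0.0504), without a filter (0.24, adjusted P = 0.0640) and by DESeq2 (0.24, adjusted P = 0.147). Srsf3 was lost without WT3 or KO3 (adjusted P up to 0.145 at 0.06). Cdkn1a was lost without WT1 or KO3 (adjusted P up to 0.151 at -0.08) or with library totals (-0.11, adjusted P = 0.0558). For the same cultures the authors reported generally lower levels of their own, longer list of NMD targets and more phosphorylated UPF1. They also reported lower levels of selected targets relative to their pre-mRNA. Their list, defined in N2A neuroblastoma cells, was not tested here as a set. It holds 3 of the members, Smg1, Smg5 and Smg6. Of these, Smg6 was called higher (log2FC 0.18), and Smg1 and Smg5 were not called in either direction (0.02 and 0.06).

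**Figure D5:**
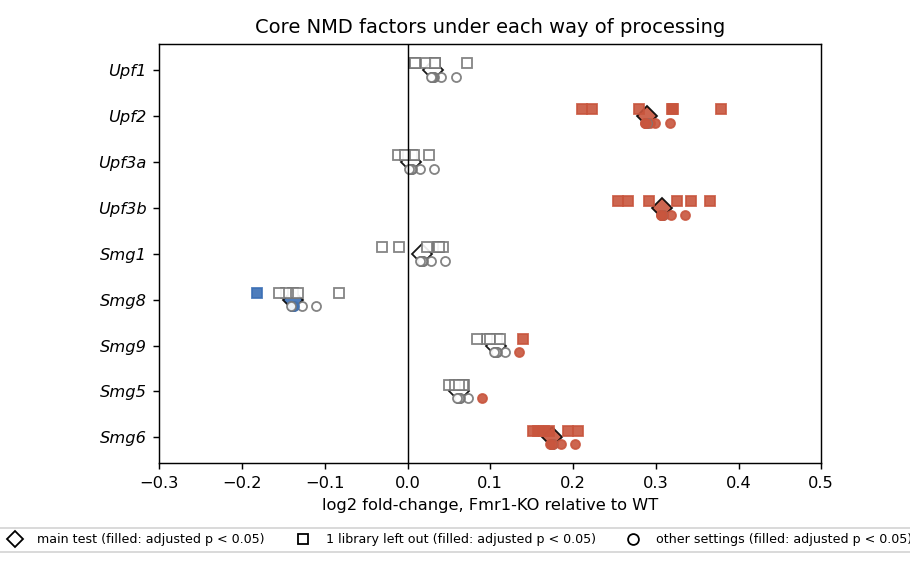
Log2FC of each core NMD factor (x axis) in the main test (diamonds), in fits without 1 library (squares) and in the other alternatives (circles); filled symbols passed an adjusted P of 0.05. Upf2, Upf3b and Smg6 stay between 0.15 and 0.38, while the single filled value of Smg5 and the scattered ones of Smg8 and Smg9 show calls that depend on the setting.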

How the data were processed

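RNA-seq libraries of 3 WT and 3 Fmr1-KO cultures were analysed from raw counts per gene name, which the authors deposited without normalization in 1 table of 55367 rows (31650 with a count, 0 without a gene name). Per their methods and the submitters' processing notes, single-end reads of 100 nucleotides were trimmed with FastP, aligned to GRCm38.p6 with STAR 2.7.6a and assigned to exons by featureCounts (Subread 2.0.1) in reverse-stranded mode; isoforms and pre-mRNA are therefore not separated. Genotype and replicate number came from the labels.

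All genes were fitted together with the quasi-likelihood test of edgeR 4.0.16 under R 4.3.3 (glmQLFit, glmQLFTest). Low genes were removed by filterByExpr, libraries were scaled by TMM, and genotype was the only term. P values were 2-sided and adjusted by Benjamini-Hochberg over the 16976 genes kept, with a call at an adjusted P under 0.05. SE is the size of the log2 fold-change divided by the square root of F, and 95% intervals use the t distribution of that fit. CPM are TMM-scaled. Depth was 30348556 to 35126207 counts per library; replicates differed by more than counting noise (chi-square per degree of freedom 2.83 in WT and 3.06 in Fmr1-KO). Ratios were tested by exact permutation over libraries. The authors used DESeq2; version 1.42.0 was an alternative here, beside other normalizations, filters, a replicate block, a minimum fold-change of 1.2, removal of the 20 most abundant genes and leaving out each library. The script was tested on simulated data.

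The members and gene lists were chosen with earlier results of these data known. Genes named are the members, Fmr1, up to 3 called genes per direction in each pathway list, and the 3 genes nearest to the member of largest change. Any other gene was named after its values were seen. Coordinates and lengths came from GENCODE M21, an earlier release than that of the authors. Protein sequences were not used here, and 1 further pathway gene is not reported here.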

Additional observations from a re-analysis of the deposited data

How the results depend on the processing

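The number of members called higher was 3 in the main test, 5 with library totals alone (Smg5 and Smg9 added; all genes then had a median log2 fold-change of 0.03) and 0 with a minimum fold-change of 1.2; without 1 library it ran from 3 to 4. The number called lower was 1 (Smg8) in the main test and 0 with DESeq2, a minimum fold-change of 1.2, genes left unfiltered, upper-quartile scaling or library totals; without 1 library it ran from 0 to 1. Of all genes, 17.2% to 19.2% were called higher and 19.2% to 20.7% lower without 1 library. With genes left unfiltered 10.8% were called higher and 11.7% lower, and with upper-quartile scaling 22% and 20.7%. The shares for the other settings are given above. The cause of the differing member counts was not tested, other than that a minimum fold-change is a stricter test. By DESeq2, 4 members had an unadjusted P under 0.05, and with the minimum fold-change 0 did.

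For single members, 114 of 135 recomputed log2 fold-changes gave the same direction and call, 13 lost a call, 3 gained one and 5 reversed. Those that reversed were near 0: Upf3a gave -0.00269 (WT2 left out), -0.0112 (KO1) and -0.00345 (KO2), up to 0.0259 (KO3). Smg1 gave -0.00973 (WT3) and -0.0312 (KO2), up to 0.0426 (KO1). The log2 ratio of Smg1 to Upf1 was 0.0261 (WT1 left out), 0.00749 (KO1) and 0.00345 (KO3), and ran down to -0.054 (KO2). The ratios of Upf3b to Upf3a and of Smg6 to Smg5 kept their sign in all alternatives.

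Over all tested genes, same-numbered deviations from the genotype means correlated at -0.0289, 0.0323 and -0.0147. No pairing by replicate number was visible in these values, which cannot exclude that same-numbered cultures were prepared together. With a replicate block 3 members were higher and 1 lower, as without it, against 20.5% and 21.8% of all tested genes. The log2 ratios gave an exact sign-flip P of 0.25 (Upf3b to Upf3a), 0.75 (Smg1 to Upf1) and 0.5 (Smg6 to Smg5), with 0.25 the smallest possible.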
